A study of Mus musculus with 62 samples.

Results

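The genes described are the clustered histone genes of the mouse, which are the rows of the deposited expression table whose symbol begins with Hist1h, Hist2h, Hist3h or Hist4h. This rule found 71 genes among the 47643 gene symbols of the table. RNA of brown adipose tissue, a heat-producing fat, was measured in 62 libraries of 12 groups. Female mice aged 2 months were injected with 1 of 2 kinds of melanoma cell, labelled cachectic (CAC) and non-cachectic (NCAC), or were mock injected (Con), and tissue was taken 2, 4, 6 or 8 weeks later. Each group had 5 libraries, labelled as biological replicates, except CAC at 8 weeks, which had 7. The sample labels give the strain as C57BL/6J and the series text gives NCI Ath/nude, and the strain was not tested; the summed level of 7 T cell markers was 0.169 to 2.03 TPM in the 62 libraries. The melanoma lines are not named in the labels, and no group carries another allele or drug.

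Histones are the proteins around which DNA is wound. H2A, H2B, H3 and H4 form the core of the nucleosome and H1 binds the DNA between cores. Most of their genes lie in clusters and are transcribed during DNA replication; the messages of such genes end in a conserved stem-loop bound by SLBP instead of a poly(A) tail. Some clustered genes also make a longer, polyadenylated message in cells that do not divide. The libraries were made with an mRNA kit, so a message with no tail may be under-represented in all of them; this was not tested.

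The stem-loop is shown first because it is the feature of sequence that sets many messages of the family apart from other annotated messages. It was searched in the mouse transcripts of GENCODE vM21 (mm10) as a run of 16 bases with a perfect stem of 6 base pairs, opening with GG, closing with CC and with TT at the start of the loop. Of the 69 members found in GENCODE by symbol, 66 are annotated as coding. The longest coding transcript of each was used here and in the counts below. In 43 members it carries the stem-loop after the stop codon. Hist1h2bp has the stem-loop in a shorter transcript only and is not among these. In 12 of the 23 coding members without it, no bases are annotated after the stop codon, so the search could not find it there. Anywhere in a transcript, the stem-loop was found in 62.9% of 70 clustered histone genes of GENCODE and in 0.334% of all 55341 genes. Capitals mark the stem-loop in the following 4 members, chosen because they are abundant here and show the different loops and stems, read on the strand of the gene.

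Hist1h1c: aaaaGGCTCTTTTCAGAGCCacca

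Hist1h2bk: caaaGGCTCTTTTAAGAGCCacta

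Hist1h4h: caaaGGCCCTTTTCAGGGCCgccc

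Hist1h4i: taaaGGCCCTTTTTAGGGCCacca

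The stem-loop of Hist1h1c is the commonest form and was found in 25 members, that of Hist1h4h in 7, that of Hist1h2bk in 6 and that of Hist1h4i in 2. What follows it differs between members. The annotated message of Hist1h2bk ends 30 bases after the stem-loop and that of Hist1h4h 46 bases after it, while that of Hist1h1c runs on for 840 bases and that of Hist3h2a for 1643. Over the 43 members counted with a stem-loop, 20 messages end within 60 bases of it and 18 run on for more than 300 bases. Hist1h2bc and Hist2h2be, both coding for H2B, carry no such run after the stop codon; Hist1h2bc is annotated with 2 exons and 742 bases after the stop codon, and Hist2h2be with 2192.

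Only part of the family was measurable in this tissue. Of the 71 members, 17 reached at least 1 TPM (a level per length of message, scaled to a fixed total in each library) in at least 5 libraries, the filter used for every test. By the histone named in the symbol, these were 2 of 6 H1 genes, 4 of 20 H2A genes, 6 of 20 H2B genes, 2 of 12 H3 genes and 3 of 13 H4 genes. These counts include Hist1h2al, Hist1h2aj and Hist3h2bb-ps, which are annotated as pseudogenes. Of those, only Hist1h2al was tested. The other 54 members were not tested, and 5 of them were listed at 0 in every library. Nearest to the filter were Hist2h4, kept with 6 libraries at 1 TPM or more and a mean of 0.511 TPM, and Hist1h3d, Hist1h4c and Hist1h2bg, left out with 1 library each and means of 0.307, 0.255 and 0.178 TPM. TPM keeps no read totals, so depth is unknown and no interval for counting error can be given.

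The RNA was concentrated in a few genes. Hist1h2bc (H2B; chr13:23684199-23692908) had the highest mean, 48.0 TPM, and held 27.5% of the summed TPM of the family. Hist1h1c (the linker histone H1.2; chr13:23738808-23740367) followed with 37.8 TPM and 21.7%. The 10 most abundant members held 94.3% of the sum. Next in order of mean TPM were Hist1h2al (H2A, 21.0), Hist2h2aa1 (H2A, 14.4), Hist1h2bk (H2B, 11.6), Hist2h2be (H2B, 8.94), Hist1h4h (H4, 8.82), Hist1h4i (H4, 6.32), Hist2h3c1 (H3, 3.93) and Hist3h2a (H2A, 3.73).

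Single values within the family are uncertain where members share sequence. Of the 31-base words in the message of Hist1h2al, 81.9% occur in another member; GENCODE lists it as a processed pseudogene at chr13:51202727-51203065. The figure is 89.6% for Hist2h2aa1 and 100% for its close copy Hist2h2aa2, and 75.3% for Hist1h2bk. Hist2h2aa2 alone holds 79.9% of the words of Hist1h2al, and all words of Hist2h2aa2 occur in Hist2h2aa1. Hist1h2al and Hist2h2aa1 may thus draw on the same reads, which was not tested. How the authors divided shared reads is not given in the sources used here. Hist2h2be and Hist3h2a stand apart with 1.93% and 3.31%, and Hist1h2bc (31.7%) and Hist1h1c (11.4%) lie between. Hist1h2be and Hist1h1e overlap on the same strand of chromosome 13, so reads in the shared stretch cannot be told apart.

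**Figure D1:**
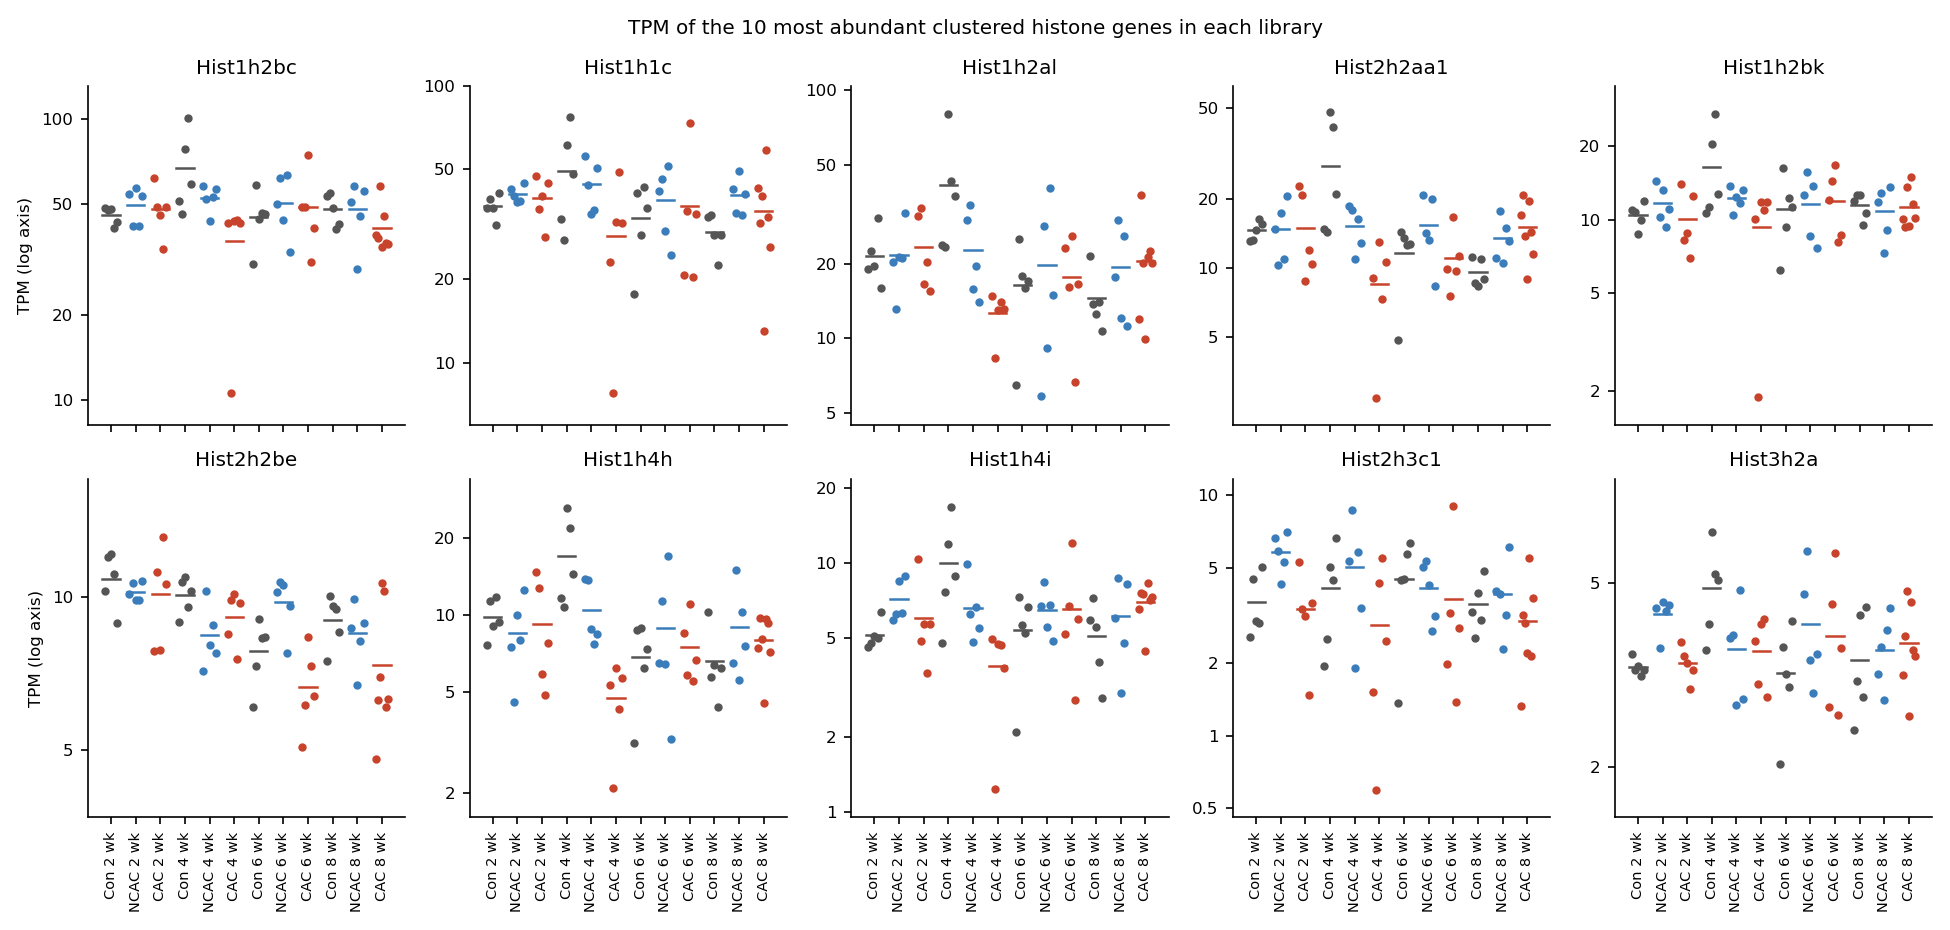
TPM (vertical, log axis, a separate scale in each panel) of the 10 most abundant members in each library, with the 12 groups along the horizontal axis; points are libraries and bars are group means. Con at 4 weeks has the highest mean and CAC at 4 weeks the lowest in 7 of the 10 panels, while Hist2h2be keeps within 4.79 to 13.1 TPM.

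Group means of the leading members lay close together in most groups. Hist1h2bc was lowest in CAC at 4 weeks, with 36.7 TPM ± 14.6 (SD, n = 5), and highest in Con at 4 weeks, with 66.9 ± 22.7 (n = 5). In the other 10 groups its mean was between 40.99 TPM ± 8.13 in CAC at 8 weeks (n = 7) and 52.4 ± 5.51 in NCAC at 4 weeks (n = 5). Neighbouring groups in that order lie within 1 SD of each other. Hist1h1c had its extremes in the same groups, 28.8 TPM ± 15.0 in CAC and 49.6 ± 20.3 in Con at 4 weeks. The same holds for Hist1h2al (12.7 ± 2.52 and 41.6 ± 23.2 TPM), Hist2h2aa1 (8.51 ± 3.88 and 27.8 ± 15.6), Hist1h2bk (9.32 ± 4.22 and 16.5 ± 7.14), Hist1h4h (4.70 ± 1.61 and 16.9 ± 6.72) and Hist1h4i (3.88 ± 1.54 and 10 ± 4.57).

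The remaining 3 of the 10 had another order. Hist2h2be was highest in Con at 2 weeks, at 10.9 TPM ± 1.34 (n = 5), and lowest in CAC at 6 weeks, at 6.64 ± 1.24 (n = 5). Hist2h3c1 went from 2.88 TPM ± 2.01 in CAC at 4 weeks to 5.83 ± 1.11 in NCAC at 2 weeks. Hist3h2a went from 3.19 TPM ± 0.786 in Con at 6 weeks to 4.87 ± 1.11 in Con at 4 weeks.

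In the comparisons below, 3 libraries were set apart. CAC library 2 at 4 weeks was chosen after the data were seen, for its low member values. Some libraries at least as far from their fellows, given further below, were kept. Con libraries 3 and 4 at 4 weeks had 372 and 374 TPM in the summed family, where the 62 libraries had a median of 169.2. In the same 2 libraries 39.6% and 39.7% of all TPM came from mitochondrially encoded genes, against 57.1% to 58.7% in the other 3 of their group, which leaves more of the fixed total to every other gene. Of the 17 tested members, 14 were higher in library 3 than in each of those 3, beside 76.4% of all 12581 tested genes; library 4 had 14 and 81.9%. CAC library 2 at 4 weeks had the lowest sum of the series, 53.95 TPM, and 11 members were below all 4 other libraries of its group, beside 24% of all genes, with a mitochondrial share of 54.2%. That share lies near those of the other 4 libraries, 55.1% to 57.8%. That CAC library had 379 TPM in a list of 11 immediate early and stress genes, against 60.8 to 148.8 in the other 4; its part in the result was not tested.

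**Figure D2:**
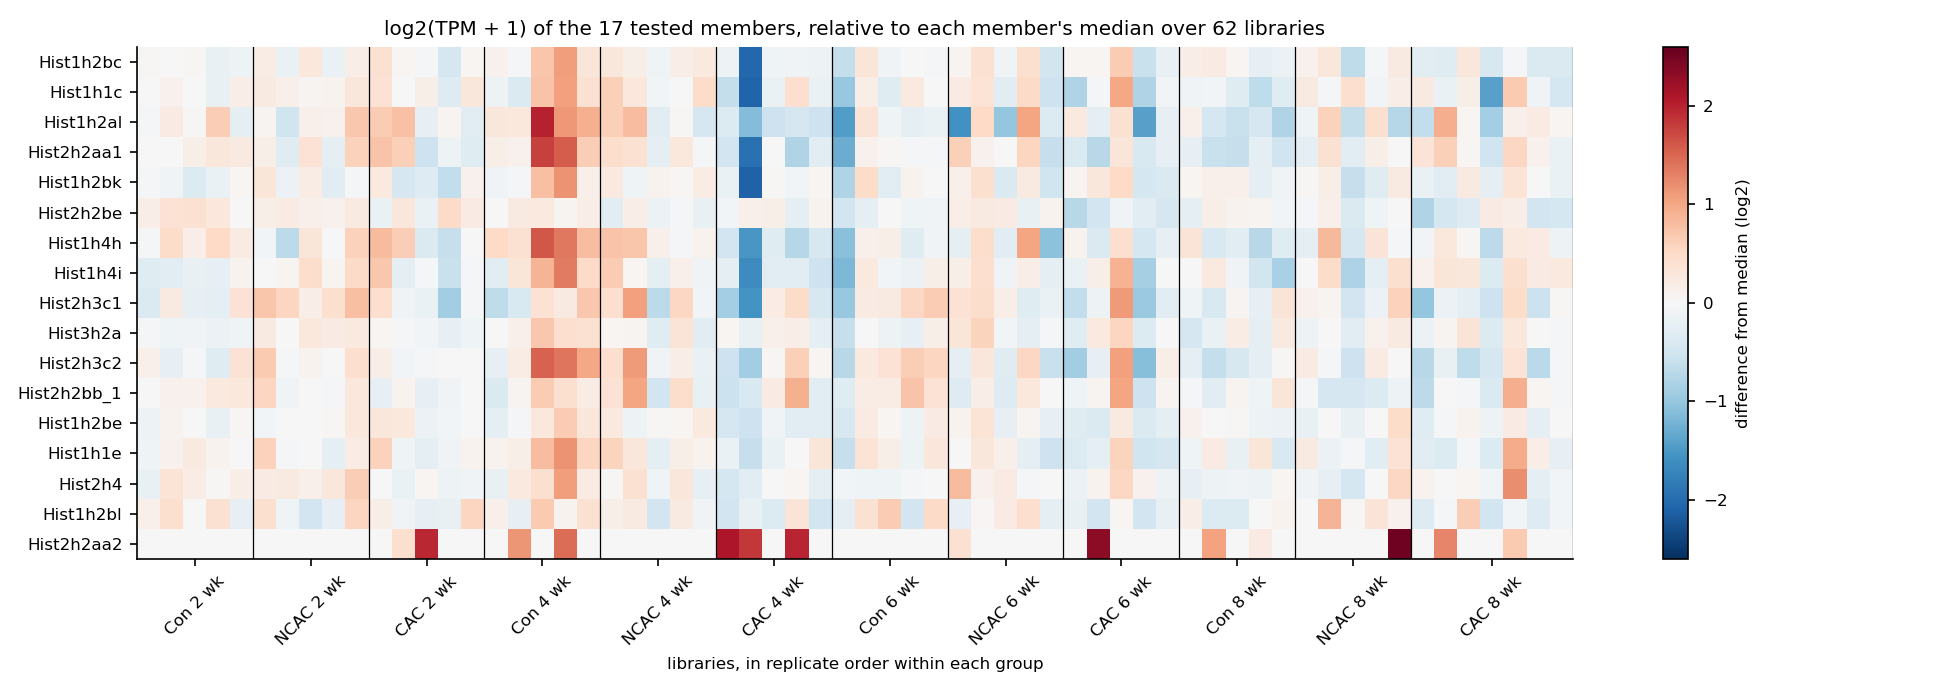
Each row is 1 of the 17 tested members and each column 1 of the 62 libraries, in replicate order within its group; colour gives log2(TPM + 1) minus the member's median over all libraries. Con libraries 3 and 4 at 4 weeks are red in nearly every row and CAC library 2 at 4 weeks is blue, while the row of Hist2h2be stays pale.

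CAC was compared with Con at each week to ask how brown fat differs with a cachectic tumour. The fit was limma on log2(TPM + 1) over all 62 libraries and all tested genes, with a call at a Benjamini-Hochberg adjusted p under 0.05, and each difference below is on that scale, which understates changes of low genes. At 4 weeks 7 of the 17 members were lower in CAC and 0 higher, where 3.85% of all tested genes were called in either direction and 3.03% as lower. The median difference of the members was -0.68 and that of all tested genes -0.08. After median-of-ratios rescaling, which takes out the shift that the fixed total gives to all genes, 6 of the 7 calls were made, without Hist1h2bk (5.13% of all genes). None of the 7 was made without Con libraries 3 and 4, when 0.644% of all genes were called and 6 members had an unadjusted p under 0.05. With only these 2 groups in the fit, limma also gave 0 calls, with 11 members at an unadjusted p under 0.05. The share of all genes at an unadjusted p under 0.05 is not given here or below. Such member counts therefore have no background, and the shares of genes called are at the stricter adjusted threshold. Leaving out Con library 3, Con library 4 or CAC library 2 alone left 2 calls, Hist1h4h and Hist2h2aa1, and leaving out Con library 1 or 2 gave 10. The share of all genes called is not given for single libraries left out or for the fit of only these 2 groups. Those counts therefore do not show whether the members changed more than all genes. In bulk tissue, fewer cells of a type and less RNA per cell cannot be told apart.

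Both H4 genes among the leading members were called at 4 weeks. Hist1h4h (chr13:23531050-23531519) stood at 5.32, 2.09, 6.16, 4.28 and 5.65 TPM in CAC libraries 1 to 5 and at 11.7, 10.7, 26.1, 21.8 and 14.4 TPM in Con libraries 1 to 5. The groups did not overlap, and the lowest Con value belongs to library 2, which is not one of those set apart. The log2 difference was -1.63 (SE 0.30, adjusted p = 0.00147), or -1.27 (SE 0.34, adjusted p = 0.0569) without Con libraries 3 and 4. Without CAC library 2 it was -1.43 (adjusted p = 0.0231). Hist1h4i (chr13:22040636-22041362) was at 4.95, 1.24, 4.71, 4.68 and 3.80 TPM in CAC and at 4.77, 7.69, 11.9, 16.8 and 8.87 TPM in Con, a difference of -1.16 (SE 0.28, adjusted p = 0.0124). Here the groups overlapped, since Con library 1 was below CAC library 1.

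By symbol, H2A was represented by 2 of the calls, in genes that share much of their sequence and may not be separate results. Hist1h2al among them is annotated as a processed pseudogene. Hist2h2aa1 (chr3:96245497-96246082) had 9.03, 2.69, 13.01, 7.28 and 10.6 TPM in CAC and 14.8, 14.3, 47.8, 41.2 and 21.1 TPM in Con, a difference of -1.56 (SE 0.29, adjusted p = 0.00205). The groups did not overlap, though CAC library 3 and Con library 2 lay close. Without CAC library 2 the difference was -1.25 (adjusted p = 0.0308). Hist1h2al had 14.8, 8.34, 13.03, 14.02 and 13.1 TPM in CAC and 23.8, 23.4, 80.2, 43.2 and 37.6 TPM in Con (-1.52, SE 0.37, adjusted p = 0.0139), again without overlap. Hist3h2a, the H2A gene with little shared sequence, was not called, at 2.84 to 4.18 TPM in CAC and 3.58 to 6.44 TPM in Con (-0.35, SE 0.16, adjusted p = 0.181).

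Among H2B genes, 3 were called. Hist1h2bc had 42.7, 10.6, 43.4, 43.8 and 42.8 TPM in CAC and 50.9, 45.8, 78.4, 101 and 58.7 TPM in Con. Its CAC values other than library 2 lay close together and just below the lowest Con value, so the groups did not overlap. The difference was -0.94 (SE 0.24, adjusted p = 0.0164), and -0.63 (SE 0.26, adjusted p = 0.301) without Con libraries 3 and 4. Hist1h2bk (chr13:22035870-22036345) had 10.1, 1.89, 11.8, 11.0 and 11.9 TPM in CAC and 10.7, 11.3, 20.4, 27.2 and 12.8 TPM in Con (-0.85, SE 0.26, adjusted p = 0.0496). Outside the 3 libraries set apart its values in the groups were nearly the same. The third, Hist1h2be, was below 2 TPM in all 10 libraries (-0.51, SE 0.14, adjusted p = 0.0248).

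In H1, Hist1h1c was not called, with 23.1, 7.76, 32.2, 49.0 and 32.1 TPM in CAC and 33.1, 27.8, 61.6, 77.1 and 48.1 TPM in Con (-0.87, SE 0.31, adjusted p = 0.0942). H3 also gave no call; Hist2h3c1 had a difference of -0.49 (SE 0.33, adjusted p = 0.417). Hist2h2be did not share the pattern of the other H2B genes. It stood at 8.46, 9.88, 10.1, 7.53 and 9.72 TPM in CAC and at 8.94, 10.7, 10.9, 9.55 and 10.3 TPM in Con (-0.13, SE 0.14, adjusted p = 0.621). The groups overlapped, and Con libraries 3 and 4 were not both above the rest of their group.

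Over all 17 members, 4 had CAC values that were all below all Con values at 4 weeks, namely Hist1h4h, Hist2h2aa1, Hist1h2al and Hist1h2bc, where 1.01% of all tested genes did so. Because of their shared sequence, Hist2h2aa1 and Hist1h2al may not count as separate genes here. The same 4 were separated without Con libraries 3 and 4 (1.22% of all genes) and also without CAC library 2 (1.56%). With fewer libraries such a separation is easier to reach, and the differences became smaller. CAC library 2 was chosen for its low values, so part of that decrease follows from the choice. Without all 3 libraries Hist1h4h had -1.06 (SE 0.34, adjusted p = 0.275), Hist1h2al -0.96 (SE 0.43, adjusted p = 0.579), Hist2h2aa1 -0.70 (SE 0.29, adjusted p = 0.526) and Hist1h2bc -0.25 (SE 0.21, adjusted p = 0.798). These libraries carried other differences as well. In the 5 B cell markers the summed level was 27.2 to 68.7 TPM in Con and 4.56 to 24.7 TPM in CAC, with 1 of 3 tested lower, and in 6 markers of gland and surface epithelium it was 10.4 to 189.8 TPM and 0.605 to 102.5 TPM, with 0 of 6 called. Other lists went in both directions. Of the macrophage markers 1 of 9 was higher (median 0.57), and of the brown adipocyte markers 1 of 9 was lower (median -0.13). The neutrophil, endothelium, adipocyte progenitor, skeletal muscle and erythroid lists had 0 called, with medians of 0.34, -0.14, -0.24, -0.54 and 0.75. No marker of these tested lists was at 0 in all libraries of a group, and their part in the result was not tested.

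**Figure D3:**
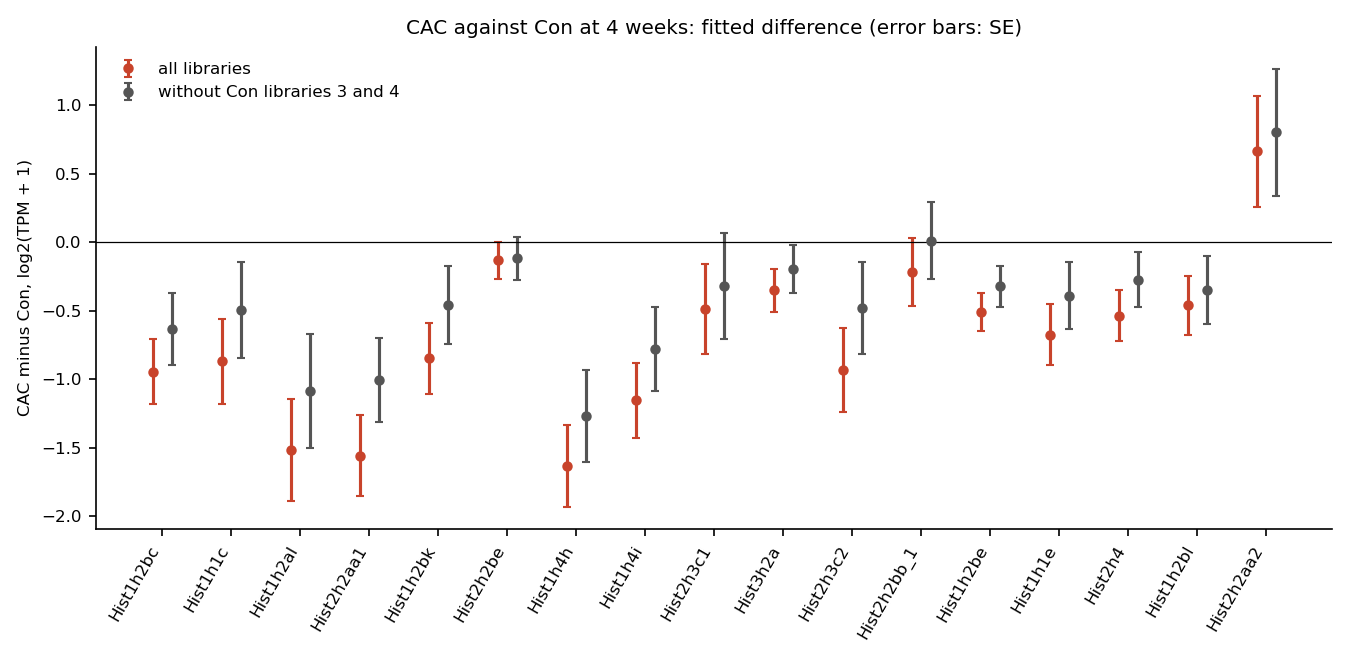
Fitted difference between CAC and Con at 4 weeks on the log2(TPM + 1) scale for the 17 tested members, with all libraries (red) and without Con libraries 3 and 4 (grey); bars are SE. Most differences move towards 0 without those libraries, Hist1h4h remains the lowest at -1.27, and Hist2h2be stays near -0.1 in both.

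The genes that process histone messages and the histone genes outside the clusters were taken from lists. Of 15 tested genes for histone message processing, such as the stem-loop binding protein Slbp, 0 were called at 4 weeks, with a median difference of -0.02. Of 11 tested histone genes outside the clusters, which make polyadenylated messages for replacement histones, 2 were lower and 0 higher, with a median of -0.21. Of 16 tested DNA replication genes, which act in S phase, 0 were called, with a median of 0.02. The difference between these lists and the clustered genes was not tested.

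The NCAC libraries give the comparison with the tumour labelled non-cachectic. Against NCAC at 4 weeks, 0 of 17 members were called in CAC by limma, where 0.588% of all genes were called. The median was -0.44 for the members and 0.06 for all genes. An unadjusted p under 0.05 was found in 9 members, with no share of all genes to set beside it. Hist1h4h came nearest, at 7.66 to 13.8 TPM in NCAC and 2.09 to 6.16 TPM in CAC, so that the groups did not overlap (-1.03, SE 0.30, adjusted p = 0.0982). For Hist1h4h the call was made after median-of-ratios rescaling (-1.08, SE 0.28, adjusted p = 0.0402), where 0.978% of all genes were called. NCAC against Con gave 0 calls at 4 weeks (0.00795% of all genes), with 4 members at an unadjusted p under 0.05 and a median of -0.31. These 3 comparisons share libraries, so their values are not independent of each other.

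At the other weeks few members differed. CAC against Con gave 0 calls at 2 weeks (4.63% of all genes) and 0 at 6 weeks (21.7%), with 0 members at an unadjusted p under 0.05 in both. At 8 weeks 1 of 17 members was called, as lower, where 54% of all genes were called and 1.97% as lower. The members' median at 8 weeks was 0.02 and that of all genes 0.28. The change of the CAC and Con difference from 2 to 8 weeks was called in 0 members (11.6% of all genes; 0 at an unadjusted p under 0.05). Against NCAC, 0 members were called at 2 weeks (0.0397%; 1 at an unadjusted p under 0.05) and at 8 weeks (39.3%; 0 at an unadjusted p under 0.05), and 1, as lower, at 6 weeks (7.77%, and 1.95% as lower). NCAC and Con gave 0 calls at 2, 6 and 8 weeks, where 0% of all genes were called, with 0, 1 and 0 members at an unadjusted p under 0.05. Con at 8 weeks gave 0 against Con at 2 weeks (0.0318%; 0 at an unadjusted p under 0.05).

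The single gene behind both late calls was Hist2h2be (chr3:96221119-96223738), an H2B gene with a long annotated message in which the search found no stem-loop. At 6 weeks it stood at 5.06, 6.12, 8.33, 7.31 and 6.39 TPM in CAC and at 10.2, 10.7, 10.6, 7.74 and 9.60 TPM in NCAC. Only CAC library 3 lay above the lowest NCAC value, that of library 4. The log2 difference was -0.50 (SE 0.14, adjusted p = 0.0125). At 8 weeks its CAC values were 4.79, 6.27, 6.97, 10.7, 10.3, 6.07 and 6.31 TPM, against 7.49, 10.1, 9.59, 9.45 and 8.52 TPM in Con. In CAC, 5 of 7 libraries were below every Con library and libraries 4 and 5 were above every Con library. The difference from Con was -0.30 (SE 0.13, adjusted p = 0.0375). This call depended on the setting: it was not made with no filter (adjusted p = 0.0596), with a replicate block (-0.23, adjusted p = 0.119), with only these groups in the fit (adjusted p = 0.146), or without Con library 2, 3 or 4 or CAC library 1, 2, 6 or 7 (adjusted p = 0.0679 to 0.122). The call at 6 weeks was not made without CAC library 1 (-0.42, adjusted p = 0.0753). On TPM most genes were higher in CAC at 8 weeks. After median-of-ratios rescaling the difference of Hist2h2be from Con at 8 weeks was -0.62 (SE 0.13, adjusted p = 0.000346; 26.4% of all genes called). That from NCAC was -0.45 at 8 weeks (SE 0.13, adjusted p = 0.0098; 24.4%) and -0.57 at 6 weeks (SE 0.14, adjusted p = 0.00465; 10.3%). In the same setting Hist1h2bc was also called, as lower in CAC than in Con at 8 weeks.

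Some members moved together from library to library. For this, log2(TPM + 1) was taken relative to the group mean and Hist1h2bc was compared with each of the other 9 leading members over 62 libraries, with permutation within groups (100000 resamples) and adjustment over 18 relations. Hist1h2bk followed it most closely, with Pearson r = 0.929 and Spearman rho = 0.887 (permutation p = 1e-05 for each, the smallest these resamples can give, adjusted p = 1.8e-05). Leaving out the 2 libraries farthest from the median of Hist1h2bc, CAC library 2 at 4 weeks and NCAC library 3 at 8 weeks, left r = 0.892. Hist1h2bk shares sequence with other members, and the part of shared reads in its relation was not tested. Hist1h4i, an H4 gene, gave r = 0.832 and rho = 0.803 (0.815 without those 2 libraries), and Hist1h1c r = 0.761 and rho = 0.703 (0.756), both with permutation p = 1e-05.

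Weaker relations were found for Hist2h2aa1 (r = 0.714, rho = 0.631), Hist1h4h (r = 0.698, rho = 0.680), Hist2h3c1 (r = 0.605, rho = 0.473), Hist1h2al (r = 0.517, rho = 0.567) and Hist3h2a (r = 0.506, rho = 0.530). Their permutation p-values for r were at most 6e-05 and for rho at most 0.00045, and without the 2 farthest libraries r was 0.534 to 0.694. Hist2h2be showed no such relation, with r = 0.006 (permutation p = 0.965, adjusted p = 0.965) and rho = 0.041 (permutation p = 0.765, adjusted p = 0.810). Without the 3 libraries set apart above, r was 0.884 for Hist1h2bk, 0.546 for Hist3h2a and 0.064 for Hist2h2be. Members share the fixed TPM total of a library, which by itself makes genes vary together; its part was not tested.

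Promoters are given for 2 members that moved with Hist1h2bc and were called at 4 weeks, since they differ in the motifs they hold. The stretches are the 250 bases before the RefSeq start on GRCm38.p6, both on the plus strand, Hist1h2bk at chr13:22035571-22035820 and Hist1h4h at chr13:23530794-23531043. Capitals mark the octamer ATTTGCAT, a site of POU factors such as Oct1, the letters CCAAT and the letters TATAAA. Each was searched on either strand and at any distance from the start. None of these motifs overlaps another.

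Hist1h2bk: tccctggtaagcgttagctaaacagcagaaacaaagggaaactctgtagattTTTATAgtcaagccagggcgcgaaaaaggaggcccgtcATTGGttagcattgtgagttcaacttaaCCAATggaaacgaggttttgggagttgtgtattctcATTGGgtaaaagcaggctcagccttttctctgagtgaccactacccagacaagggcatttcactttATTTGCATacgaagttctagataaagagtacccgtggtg

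Hist1h4h: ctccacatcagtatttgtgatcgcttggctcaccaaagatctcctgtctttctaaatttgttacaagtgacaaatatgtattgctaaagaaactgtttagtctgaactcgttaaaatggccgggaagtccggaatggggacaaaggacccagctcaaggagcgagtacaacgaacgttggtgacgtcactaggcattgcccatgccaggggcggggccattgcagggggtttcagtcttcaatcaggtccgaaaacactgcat

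Hist1h2bk holds 1 octamer, 3 CCAAT matches and 1 TATAAA, while Hist1h4h holds none of the 3 motifs. The TATAAA match of Hist1h2bk reads on the opposite strand and lies far from the start. Whether it acts as a TATA box was not tested. Over windows of 300 bases, which run to 50 bases past the start, the octamer was found in 13 of 60 members with a RefSeq promoter (21.7%) and in 1.74% of all 32851 promoters. It occurred in 7 of 17 H2A and 6 of 15 H2B promoters and in none of the 6 H1, 10 H3 and 12 H4 promoters. CCAAT was found in 85.0% of the members and 37.4% of all promoters, with 3 of 12 H4 promoters and every promoter of the other 4 classes. TATAAA was found in 58.3% and 13.6%. These matches describe letters and say nothing of binding.

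The family was next set against cell division, measured in each library. None of 22 mitosis genes reached the filter, with a summed level of 2.17 to 26.9 TPM over the 62 libraries and a median of 4.64, so the measure fixed for division rests on the mean log2(TPM + 1) of 16 DNA replication genes. The slope of each gene on that mean was fitted within groups with limma. It was called in 4 of 17 members, or 23.5%, all higher, beside 52.8% of all tested genes (52.7% higher). The members' median slope was 0.46 and that of all genes 0.39. All 4 are low members. Hist2h2aa2 had a slope of 1.40 (SE 0.51, adjusted p = 0.0189), Hist1h1e 0.67 (SE 0.28, adjusted p = 0.0424), Hist2h4 0.65 (SE 0.23, adjusted p = 0.0192) and Hist1h2be 0.47 (SE 0.17, adjusted p = 0.0201). Of the 10 most abundant members 0 were called, and Hist1h2bc had 0.37 (SE 0.31, adjusted p = 0.310). Of 11 histone genes outside the clusters 9 were called, all higher, with a median slope of 0.64.

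Those 4 calls rest on few libraries. Hist2h2aa2 was listed at 0 in 48 of 62 libraries and had its highest value, 4.74 TPM, in NCAC library 5 at 8 weeks, whose 4 fellow libraries were at 0. That library also had the highest mitosis sum of the series and the highest level of the proliferation marker Mki67, 2.62 TPM. There Hist2h4 was at 1.04 TPM, against 0.0263 to 0.400 TPM in the other 4, Hist1h2be at 1.56 against 0.609 to 0.849 TPM and Hist1h1e at 0.971 against 0.256 to 0.784 TPM. In all, 7 of 17 members were higher there than in the rest of their group and 1 was lower, beside 31.2% and 13.4% of all genes. The summed family was 186 TPM in that library. Without NCAC library 5 at 8 weeks 1 slope was called, without Con library 4 at 4 weeks 0 and without CAC library 2 at 4 weeks 8. The share of all genes called is not given for these 3 settings, so their counts have no background. Without Con libraries 3 and 4 at 4 weeks 1 slope was called (27.9% of all genes), and after median-of-ratios rescaling 0 (6.74%). All 6 epithelial markers also had a called positive slope on the replication mean, with a median of 4.09, as had all 7 adipocyte progenitor markers, with a median of 1.10, and 7 of 9 macrophage markers, with a median of 1.27; no marker of these lists was at 0 in all libraries of a group, and their part was not tested.

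The mitosis genes themselves gave another picture. With the log2 of their summed TPM as the measure, chosen after the data were seen, the slope was called in 5 of 17 members, or 29.4%, all higher, beside 14.2% of all tested genes. Abundant members were among them. Slopes are per unit of that measure, which is less than a unit for a doubling of the sum itself. Hist1h2bc rose by 0.31 (SE 0.08, adjusted p = 0.00952), Hist1h4i by 0.34 (SE 0.10, adjusted p = 0.0149) and Hist1h2bk by 0.30 (SE 0.09, adjusted p = 0.0277). The low members Hist1h2be and Hist2h4 were also called, with slopes of 0.19 (SE 0.05, adjusted p = 0.00457) and 0.21 (SE 0.07, adjusted p = 0.0361). Hist1h1c (0.18, SE 0.12, adjusted p = 0.319) and Hist2h2be (0.09, SE 0.05, adjusted p = 0.220) were not. Without NCAC library 5 at 8 weeks 7 members were called (11.8% of all genes), Hist1h2bc again with 0.40 (SE 0.10, adjusted p = 0.00747).

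The larger share did not hold without the 4-week libraries set apart. Without Con libraries 3 and 4 at 4 weeks 1 member was called, Hist1h2be, or 5.88% of the members beside 4.61% of all genes, and without CAC library 2 as well 0 members were (5.13% of all genes), with 8 at an unadjusted p under 0.05 in both. Hist1h2bc then had slopes of 0.27 (SE 0.09, adjusted p = 0.0755) and 0.21 (SE 0.07, adjusted p = 0.0569). After median-of-ratios rescaling 1 member was called, Hist1h2be (5.61% of all genes; 7 members at an unadjusted p under 0.05), and Hist1h2bc had 0.27 (SE 0.09, adjusted p = 0.0736). The mitosis sum is made of genes below the filter, and how far their error lowers or raises these slopes was not tested.

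**Figure D4:**
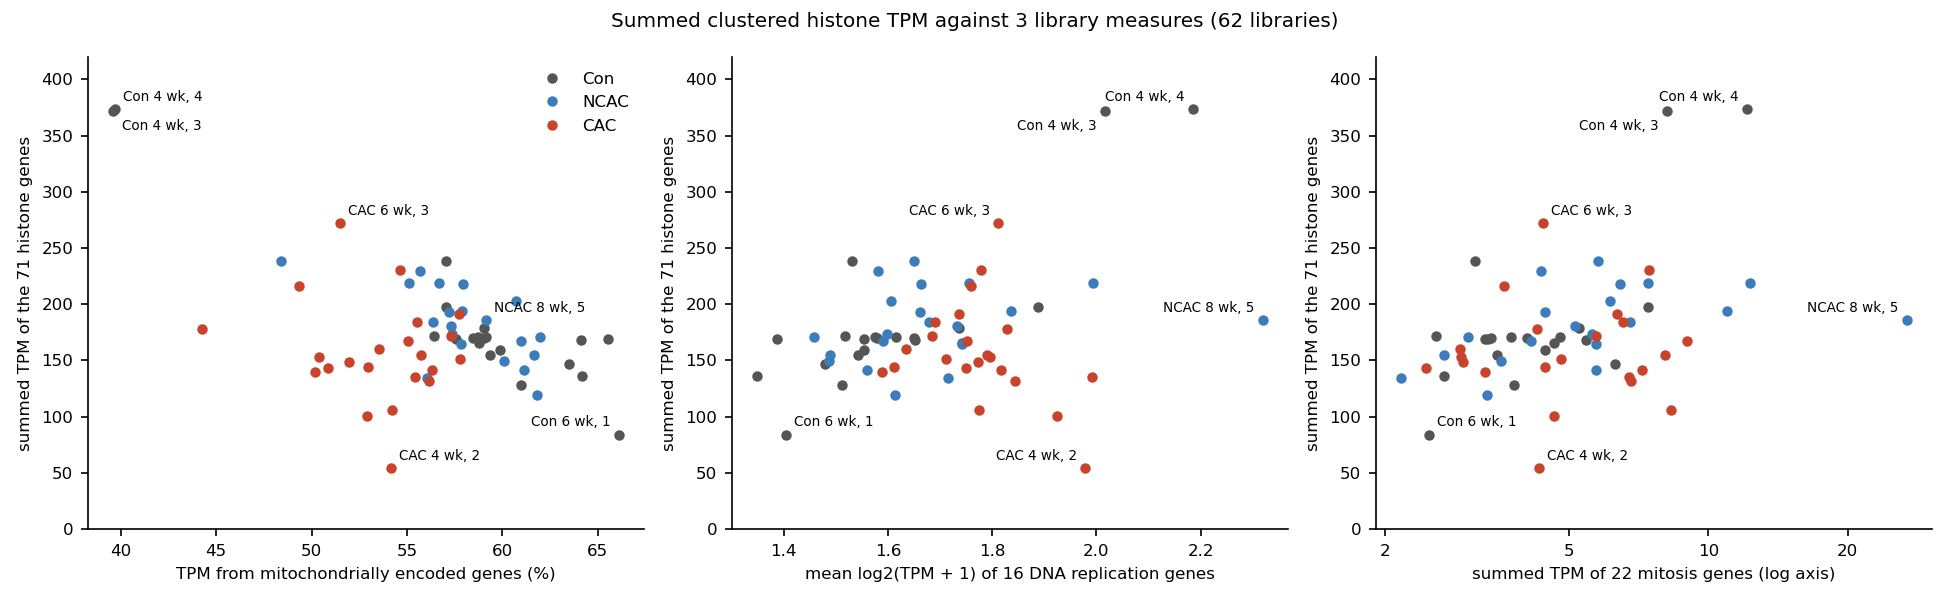
Summed TPM of the 71 clustered histone genes (vertical) against the mitochondrially encoded percent of TPM, the mean log2(TPM + 1) of 16 DNA replication genes and the summed TPM of 22 mitosis genes (log axis), with 1 point per library coloured by treatment. NCAC library 5 at 8 weeks has the highest replication and mitosis levels at a middling histone sum, and CAC library 2 at 4 weeks has the lowest histone sum, 53.95 TPM, with the highest replication mean of its group and the lowest mitosis sum, 4.30 TPM.

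The mitochondrially encoded percent of TPM was used as a measure of the library, over a range of 39.6% to 66.1%. Its slope was called in 11 of 17 members, or 64.7%, all lower where the share was higher, beside 70.8% of all tested genes (70.5% lower). Hist1h2al changed by -0.08 per percentage point (SE 0.02, adjusted p = 0.000178), Hist2h2aa1 by -0.07 (SE 0.01, adjusted p = 7.25e-05), Hist1h4h by -0.06 (SE 0.02, adjusted p = 0.000753), Hist2h3c2 (H3) by -0.06 (SE 0.02, adjusted p = 0.0019) and Hist1h1c by -0.05 (SE 0.02, adjusted p = 0.00641). The median was -0.03 for the members and -0.02 for all genes. Hist2h2be was again different, with a slope of 0.004 (SE 0.008, adjusted p = 0.636). Without Con libraries 3 and 4 at 4 weeks 3 members were called (56.1% of all genes).

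After median-of-ratios rescaling 1 member was called (8.57% of all genes), Hist2h2be, with a slope of 0.03 (SE 0.01, adjusted p = 0.00664). In shares, neither the replication mean nor the mitochondrial percent was called in more of the members than of all tested genes, unlike the mitosis sum with all libraries. Con libraries 3 and 4 at 4 weeks were high in both measures, with replication means of 2.02 and 2.19 against 1.53 to 1.65 in the other 3, and mitosis sums of 8.13 and 12.1 TPM against 3.13 to 4.06. In those 2 libraries division and library composition cannot be told apart. CAC library 2 at 4 weeks combined the lowest histone sum with a replication mean of 1.98, the highest of its group (1.71 to 1.84 in the other 4). Its mitosis sum, 4.30 TPM, was the lowest of its group (4.81 to 9.01 TPM), as was Mki67 at 0.0893 TPM (0.396 to 0.770 TPM). The measures of division thus pointed in different directions in that library.

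Libraries that were highest or lowest of their group in most members occurred in all weeks. Counting every library against all its fellows, 12 of 62 were outside the rest in at least 9 of 17 members, 4 of them above and 8 below. CAC library 3 at 6 weeks was above its 4 fellow libraries in 16 members, where 33.3% of all genes were, with a summed family of 272 TPM, a mitochondrial share of 51.5% (50.9% to 53.5% in its group) and a mitosis sum of 4.38 TPM (2.45 to 4.63 TPM in its group). CAC library 1 at 2 weeks was above its fellows in 11 members (24.8% of all genes) and NCAC library 5 at 2 weeks in 10 (13.1%). At 8 weeks CAC library 5 was above all 6 fellows in 9 members (32.2% of all genes), with a summed family of 217 TPM and a mitosis sum of 3.61 TPM.

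Among the low libraries, Con library 1 at 6 weeks was below its fellows in 14 members, where 53.1% of all genes were, with a sum of 83.9 TPM and the highest mitochondrial share of the series. Beside CAC library 2 at 4 weeks, 11 members were lowest in CAC library 4 at 6 weeks (16.7% of all genes) and in NCAC library 3 at 8 weeks (10.9%), and 10 in Con library 1 at 4 weeks (32.4%). NCAC library 3 at 4 weeks, NCAC library 5 at 6 weeks and CAC library 4 at 8 weeks were lowest in 9 members each, beside 42.3%, 43.2% and 17.2% of all genes. CAC library 4 at 8 weeks had a summed family of 105.6 TPM beside the highest mitosis sum of its group, 8.31 TPM, and NCAC library 3 at 8 weeks had 134.8 TPM beside the lowest mitosis sum of the series, 2.17 TPM. The mitosis sum was also the lowest of its group in Con library 1 at 6 weeks (2.49 TPM) and CAC library 2 at 4 weeks (4.30 TPM). The same held for NCAC library 3 at 4 weeks (3.56 TPM) and NCAC library 5 at 6 weeks (3.32 TPM). Con library 1 at 4 weeks (3.74 TPM) and CAC library 4 at 6 weeks did not have the lowest sum of their groups. The low libraries thus held the lowest mitosis sums of several groups and, in CAC library 4 at 8 weeks, a highest one. The cause was not tested.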

How the data were processed

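The authors deposited 1 table of TPM (transcript levels scaled for length and to a total of 1000000 in each library). Per the labels' protocols, RNA was extracted with Trizol and stranded mRNA libraries were made and sequenced on an Illumina instrument. The build is mm10, per the submitters' processing notes, and the aligner, annotation and way of sharing reads between copies are not given in the sources used here. Values were taken as log2(TPM + 1) for the 12581 genes that reached 1 TPM or more in 5 or more libraries, and 12 group means were fitted to all 62 libraries with limma 3.58.1 (R 4.3.3, trended empirical Bayes), with Benjamini-Hochberg adjustment over all tested genes in each of 14 contrasts and 2 slopes. The fit was tested on simulated data. Members were named by rule: the 10 with the highest mean TPM, up to 5 called members with the largest change in each direction of a comparison or slope, and any called where 5 or fewer were. The members, lists and tests were chosen with earlier results of these data known. Correlations were computed with Python 3.11.15 and figures drawn with matplotlib 3.10.9. Annotation was GENCODE vM21, matched by symbol for 69 of 71 members, and promoters were from RefSeq (GRCm38.p6), matched for 60. Alternatives were a pseudocount of 0.1, no filter, median-of-ratios rescaling, only the groups compared, a replicate block and leaving out libraries; 6 others were added after the data were seen. TPM holds no depth, so no counting error could be given. The extraction text mentions another tumour model, and the number 56 stands in a CAC title and in a Con title of week 4; groups follow the descriptions.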

Additional observations from a re-analysis of the deposited data

Results flagged for a closer look

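Within each of the 12 groups, the highest and lowest values of the 10 most abundant members were checked for a gap to the other libraries (Dixon's test at the 95% level). Of the 120 checks 8 were positive, where chance gives about 6, so the number itself is close to chance. CAC library 2 at 4 weeks accounts for 3 of them, with Hist1h2bc at 10.64 TPM against 42.65 to 43.84 TPM in the other 4 libraries, Hist1h2al at 8.335 TPM against 13.03 to 14.8 TPM, and Hist1h2bk at 1.891 TPM against 10.11 to 11.88 TPM. CAC library 3 at 6 weeks accounts for 2, with Hist1h1c at 73.57 TPM against 20.49 to 35.41 TPM and Hist2h3c1 at 9.023 TPM against 1.378 to 3.236 TPM. Con library 1 at 6 weeks had Hist2h2aa1 at 4.822 TPM against 12.62 to 14.34 TPM. Con library 5 at 2 weeks had Hist1h4i at 6.363 TPM against 4.593 to 5.078 TPM, and NCAC library 2 at 2 weeks had Hist3h2a at 3.616 TPM against 4.341 to 4.549 TPM. Con libraries 3 and 4 at 4 weeks do not appear here. The check takes the gap between an extreme library and its nearest fellow, so 2 high libraries in a group can hide each other.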

How the results depend on the processing

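No value changed sign past the threshold under any alternative run. Of the 17 tested members, CAC against Con at 4 weeks gave 7 calls as reported, 0 with only the groups compared, 0 without Con libraries 3 and 4, 0 also without CAC library 2, and 2 to 10 when single libraries were left out (2 without Con library 3, Con library 4 or CAC library 2; 10 without Con library 1 or 2). CAC against Con at 8 weeks gave 1 call, 0 with no filter, 0 with the replicate block, 2 after median-of-ratios rescaling (both lower), 2 without Con libraries 3 and 4, 2 also without CAC library 2 (1 higher and 1 lower in each), and 0 to 2 without single libraries: 0 without Con library 2, 3 or 4 or CAC library 1, 2, 6 or 7, and 2 without CAC library 4. CAC against NCAC gave 0 calls at 4 and at 8 weeks and 1 at each after rescaling. Without single libraries it gave 0 to 1 at 8 weeks (1 without CAC library 3 or 4) and 0 to 1 at 6 weeks, where it was 0 without CAC library 1, and CAC against Con gave 0 to 1 at 6 weeks (1 without Con library 4). Con at 8 against 2 weeks gave 0, and 1 with only the groups compared. In that setting the 1 call at 8 weeks was Hist2h2aa1 and not Hist2h2be. The replication slope gave 4 calls, 7 with no filter when 66 members are tested (3 of the 17; 33.4% of all genes), 0 after rescaling, 1 without Con libraries 3 and 4, 0 also without CAC library 2, 0 to 8 without single libraries, and 5 on the summed mitosis genes, or, on that sum, 7 without NCAC library 5 at 8 weeks, 1 after rescaling, 1 without Con libraries 3 and 4 of 4 weeks and 0 also without CAC library 2. The mitochondrial slope gave 11 calls, 21 of the 66 with no filter (10 of the 17; 42.2% of all genes), 1 after rescaling, 3 without Con libraries 3 and 4, 5 also without CAC library 2, and 8 to 12 without single libraries. With no filter more genes are tested, and otherwise the cause was not tested. The counts without single libraries and with only the groups compared have no share of all genes beside them here. Replicate numbers did not pair the samples: in 0 of 12 comparisons did every same-numbered pair correlate above 0.1, and 11 of 62 libraries correlated best with their own number. The replicate block changed no other count of calls by over 1.5 times. Depth is unknown, so how far it limits the low members was not tested.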
